A study of Mus musculus with 16 samples.

Results

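Early lymphoid and B-lineage genes were followed through the myeloid route to dendritic cells: Il7r, Dntt, Rag1, Rag2, Ebf1, Pax5, Igll1, Vpreb1 and Ikzf3. They were taken from the array by name, as every noncontrol probe that the scanner tables assign to one of these 9 symbols, which gave 12 of 39429 probes and 9 of the 22530 named genes. The samples were macrophage/dendritic cell progenitors (MDPs) and common dendritic cell progenitors (CDPs) sorted from bone marrow (BM) of female C57/Bl6 mice. Tumor-bearing mice carried PyMT-B6 tumors in the mammary fat, grown to 1.5 cm in diameter. PyMT-B6 is a single transplanted cell line made from the MMTV-PyMT breast tumor model, in which the mammary tumor virus promoter drives the polyoma middle T antigen. Age-matched mice without tumors served as controls. By the general description of the animals, tumors were placed at 7 to 8 weeks and mice were studied at 9 to 12 weeks of age. Each group held 4 samples of 2 mice each, with MDPs and CDPs taken from tumor-free and from tumor-bearing animals. RNA was labelled with Cy5, and each of the 16 samples had an Agilent mouse array to itself, spread over 4 slides.

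Lymphoid progenitors receive the cytokine IL-7 through the receptor chain Il7r, and the factors Ebf1 and then Pax5 commit them to the B lineage. Rag1 and Rag2 together cut the antigen receptor genes, and Dntt (terminal deoxynucleotidyl transferase) adds untemplated nucleotides at the joints. Igll1 (lambda 5) and Vpreb1 form the surrogate light chain of the pre-B cell receptor, and Ikzf3 (Aiolos) is an Ikaros-family factor of maturing lymphocytes. Transcripts of this program are also known in multipotent and dendritic progenitors before any lineage choice, and rearranged or Rag-expressing precursors are known among plasmacytoid dendritic cells (pDCs).

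Igll1 and Vpreb1 lie next to each other on chromosome 16 and are known targets of Ebf1 and Pax5. They are shown because both were above background on nearly all arrays on which Ebf1 was not. The 250 bases before each start are given from RefSeq (GRCm38.p6, minus strand, 5′ to 3′), with Igll1 at chr16:16863986-16864235 and Vpreb1 at chr16:16869256-16869505. Capitals mark CCCNNGGG, the core of the Ebf1 site, and the E-box CAGGTG, each sought on both strands and with no overlap between them.
Igll1: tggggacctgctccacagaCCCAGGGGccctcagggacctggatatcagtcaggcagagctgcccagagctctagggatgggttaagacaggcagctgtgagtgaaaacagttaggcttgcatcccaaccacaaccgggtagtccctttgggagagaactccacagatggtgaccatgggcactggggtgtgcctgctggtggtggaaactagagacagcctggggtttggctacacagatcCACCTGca
Vpreb1: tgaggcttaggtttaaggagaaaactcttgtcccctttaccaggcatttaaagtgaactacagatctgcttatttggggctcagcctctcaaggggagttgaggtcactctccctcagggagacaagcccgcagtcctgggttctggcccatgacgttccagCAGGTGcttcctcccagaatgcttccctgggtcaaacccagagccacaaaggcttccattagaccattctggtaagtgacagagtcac
The Igll1 stretch held 1 match of each motif, and the Vpreb1 stretch held 1 E-box and 0 matches of CCCNNGGG. Among all 32851 RefSeq promoter stretches of this length, 11.8% held CCCNNGGG and 17.2% held the E-box. Of the 9 genes, 8 had a promoter entry. Rag1 held 1 E-box, and the entries of Il7r, Dntt, Rag2, Ebf1 and Pax5 held neither motif.

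Signals are given as log2 of the processed spot intensity minus the 75th percentile of that array, so that 0 is the level of a probe at the 75th percentile. That percentile was at an intensity of 3633 to 4655, and between 58.8% and 71.5% of probes were well above background by the scanner's own flag. The share above background went with the slide: it was 58.8% to 64.3% on slide 1, 64.0% to 66.1% on slide 2, 67.3% to 69.6% on slide 3 and 69.4% to 71.5% on slide 4. On slides 2 and 3 the 4 groups were represented once. Of the tumor-bearing groups, slide 1 carried MDPs on 2 arrays and no CDPs, and slide 4 carried CDPs on 2 arrays and no MDPs. Slide and tumor state were therefore partly mixed. Values by slide or with a slide block are given for some results of each tested member probe. For single genes of the lists and markers, Kit and Cd34 among them, no values by slide are given. All 8 sort and progenitor markers were above background on all 16 arrays. Kit, the stem cell factor receptor, was at 1.67 ± 0.11 in MDPs and -0.92 ± 0.29 in CDPs without tumor, and at 1.55 ± 0.18 in MDPs and -2.26 ± 0.39 in CDPs with tumor (SD, n = 4 each). It was the only one of the 8 called with tumor in CDPs (adjusted p = 0.00441 by limma), where Cd34 was at 1.67 ± 0.33 without and 0.76 ± 0.47 with tumor (SD, n = 4 each, adjusted p = 0.0612 by limma).

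The first question was which of the genes could be measured in these progenitors at all. Dntt, Vpreb1, Ikzf3 and the brighter Pax5 probe were above background on 16 of 16 arrays, Igll1 on 15 and the dimmer Pax5 probe on 14. Rag1 was above background on 9 arrays by its brighter probe and Rag2 on 6. Il7r was above background on 2 arrays and Ebf1 on 1. The dimmer probes of Rag1 and Rag2 were above background on 2 and 0 arrays. Of the 39429 probes on the array, 52.8% were above background on all 16 arrays. Levels of different probes are not comparable with each other, and Il7r, Ebf1, Dntt, Igll1, Vpreb1 and Ikzf3 each had only 1 probe, so these counts say what this array could detect. A probe was tested if it was above background on at least 3 of 4 arrays of at least 1 group. That left 8 member probes for 7 genes, while Il7r, Ebf1 and the dimmer Rag1 and Rag2 probes did not pass. Over the array 27431 probes were tested.

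**Figure D1:**
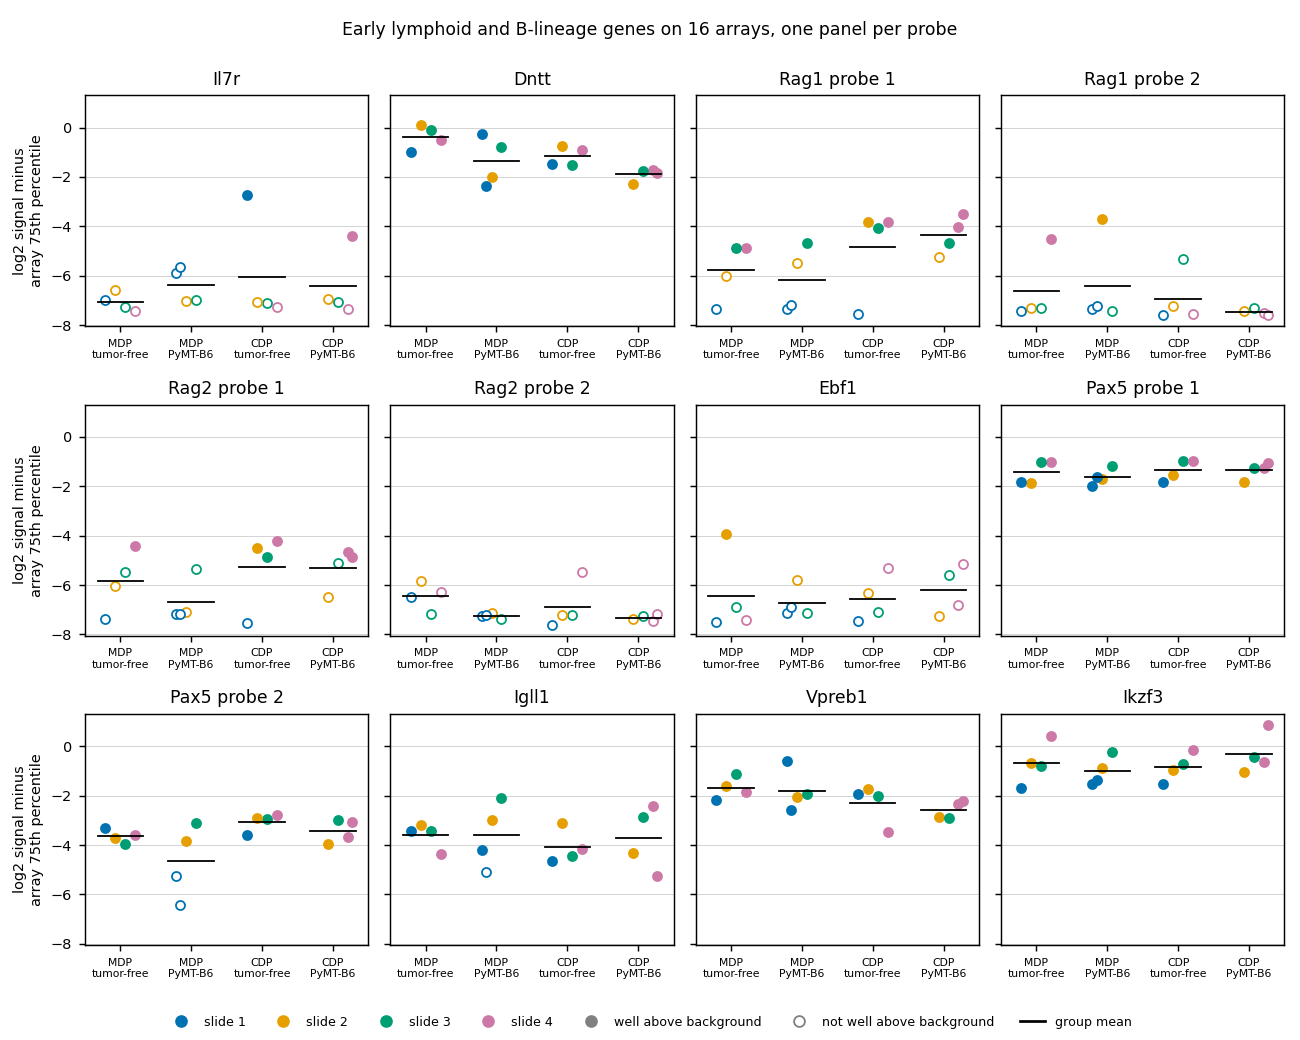
Signal of the 12 member probes on the 16 arrays, as log2 intensity minus the array's 75th percentile (y axis), in the 4 groups (x axis), with color for the slide, filled points for arrays on which the probe was well above background and a bar for the mean of the 4 samples. Dntt, Pax5 probe 1, Vpreb1 and Ikzf3 were filled throughout, Il7r on 2 arrays and Ebf1 on 1, and the slide 1 points of Rag1 probe 1 and Rag2 probe 1 all lay below -7.

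No member probe was called in any of the 5 comparisons, where a call needed a false discovery rate (FDR) under 0.05 and a fold change above 1.5. In the tumor comparison of CDPs 0 of 8 member probes were called by limma, against 491 of all tested probes (1.79%). For MDPs the count was 0 of 8 against 17 probes (0.062%), and for the difference between the 2 tumor changes it was 0 of 8 against 4 probes (0.0146%). CDPs against MDPs gave 0 of 8 without tumor, against 1665 probes (6.07%), and 0 of 8 with tumor, against 1986 probes (7.24%). Without adjustment, limma had 1 member probe under 0.05 in the MDP tumor comparison (Dntt), 1 in CDPs against MDPs with tumor (Pax5 probe 2) and 0 in the other 3. Of all tested probes, 10.4% and 27.8% were under 0.05 in the first 2 of these. The shares were 13.7% for the tumor change in CDPs, 4.05% for the difference and 17.1% for CDPs against MDPs without tumor. The methods' t-test with a fold above 1.5 had Dntt in CDPs (unadjusted p = 0.0202) and in CDPs against MDPs without tumor (unadjusted p = 0.0423), and 0 members after Benjamini-Hochberg adjustment in the 4 comparisons of 2 groups. Before adjustment, 2072 of all tested probes passed it for the tumor change in CDPs and 2995 for CDPs against MDPs without tumor. In the comparisons of 2 groups the unadjusted 95% intervals reached 0.587 to 1.87 log2 units to either side, so that changes within them were not detectable with 4 arrays per group. Changes beyond them could also miss a call at this FDR, as those of Dntt in MDPs and Pax5 probe 2 did. With 8 member probes, a count of 0 is also what a share near 1.79% or 0.062% gives, and nothing particular to these genes is read from it.

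Over the 8 member probes the median tumor change was -0.02 for CDPs and -0.36 for MDPs, where all tested probes had medians of 0.08 and -0.11. In CDPs 3 of the 8 were higher and 5 lower, and in MDPs 1 was higher and 7 lower. Of all 16275 genes tested, 6928 were lower in CDPs and 9545 in MDPs. These directions depended on the slide. With slide as a block Rag1 turned sign in both cell types, and Pax5 probe 1 and Ikzf3 turned sign in MDPs. The median of all probes depended on the scaling: under quantile normalization it was 0.03 in CDPs and 0.00 in MDPs. For CDPs against MDPs with tumor it was 0.19 as scaled here and -0.00 under quantile normalization.

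**Figure D2:**
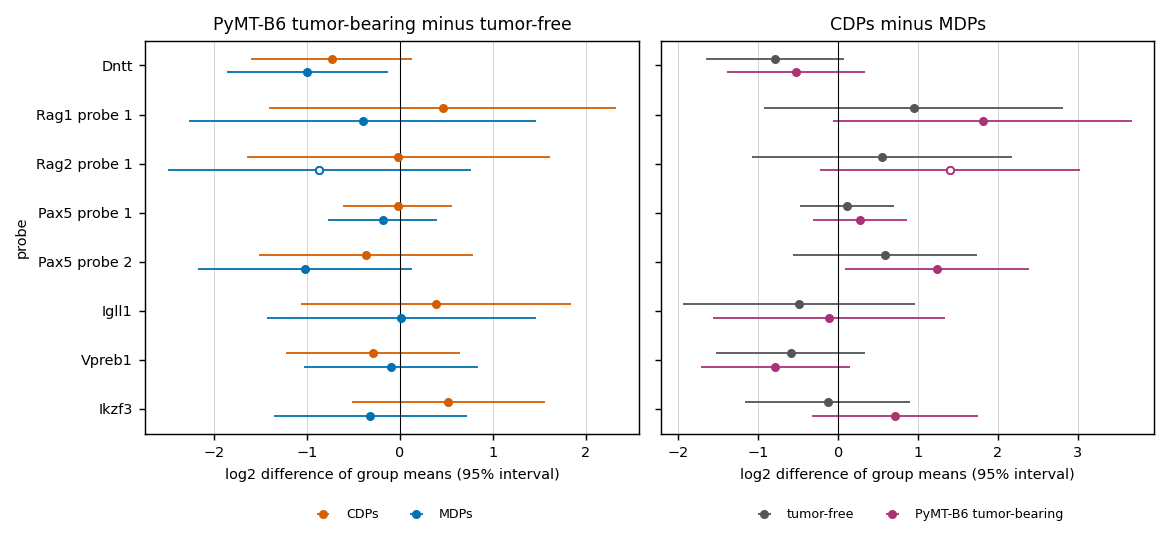
Difference of group means with its 95% interval, in log2 units (x axis), for the 8 tested member probes (y axis), with tumor-bearing minus tumor-free on the left, for CDPs and MDPs, and CDPs minus MDPs on the right, for both tumor states, and with open points where a group had no array above background (Rag2 in MDPs with tumor). Dntt lay below 0 in all 4 comparisons, and the widest intervals were those of Rag1 and Rag2.

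Dntt was the member whose level went most with the groups. The polymerase is a marker of early lymphoid progenitors, and its probe lies at chr19:41133936-41133995 (mm9, plus strand). MDPs from tumor-free mice had signals of 0.11, -0.98, -0.50 and -0.10, and MDPs from tumor-bearing mice had -0.26, -2.01, -2.38 and -0.81. CDPs from tumor-free mice had -1.52, -0.91, -0.76 and -1.47, and CDPs from tumor-bearing mice had -1.72, -1.83, -2.28 and -1.76. Thus every tumor-bearing CDP sample lay below every tumor-free CDP sample, whereas the MDP groups overlapped. Dntt was the only member probe whose CDP groups did not overlap, 1 of 8, where 11.1% of all tested probes had groups that did not overlap in this comparison. For MDPs it was 0 of 8 against 5.22%, for CDPs against MDPs without tumor 0 of 8 against 13.3%, and with tumor 0 of 8 against 14%.

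The Dntt signal was lower with tumor by a log2 difference of -0.73 in CDPs (SE 0.40, a 1.66-fold lower mean), with an adjusted p of 0.482 by limma. The exact two-sided permutation test of the same 4 against 4 samples gave p = 0.0286, the smallest that 70 relabelings allow. In MDPs the difference was -0.996 (SE 0.40, a 1.99-fold lower mean), with an adjusted p of 0.447 by limma and an exact permutation p of 0.171. Neither difference passed the test. The 2 differences did not differ detectably from each other (0.26, 95% interval -0.96 to 1.49, adjusted p = 0.861 by limma).

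Within slides, Dntt was lower with tumor each time: by -1.53, -0.24 and -0.86 for CDPs on slides 2, 3 and 4, and by -0.34, -2.12 and -0.70 for MDPs on slides 1, 2 and 3. With slide as a block the differences were -0.83 in CDPs and -0.90 in MDPs, with adjusted p of 0.282 and 0.299 by limma. Dntt was not alone in its direction within slides. The brighter Rag2 probe and both Pax5 probes were also lower with tumor in CDPs on slides 2, 3 and 4. The share of all tested probes with such a pattern was not counted. CDPs had less Dntt than MDPs on 4 of 4 slides without tumor, and the difference of group means was -0.79 (SE 0.40, adjusted p = 0.356 by limma, exact permutation p = 0.0857). With tumor it was -0.53 (SE 0.40, adjusted p = 0.353 by limma), and lower on both slides that carried the 2 groups. Only 1.41% of the variance of Dntt over the 16 arrays lay between slides and 52.7% lay between groups, where the medians over all tested probes were 48.5% and 30.4%. The part of the lower Kit signal in the CDP values of Dntt was not tested. In sorted bulk samples, fewer cells with Dntt and less Dntt per cell cannot be told apart.

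Rag1 and Rag2, the recombinase subunits, went with the slide instead. By its brighter probe (chr2:101478813-101478872, mm9, minus strand) Rag1 had signals of -6.00, -7.34, -4.88 and -4.86 in MDPs and -4.07, -3.85, -3.82 and -7.56 in CDPs from tumor-free mice. In tumor-bearing mice the signals were -7.36, -5.47, -7.18 and -4.67 in MDPs and -4.03, -3.51, -5.26 and -4.66 in CDPs. The lowest sample of each of the first 3 of these groups came from slide 1, and tumor-bearing CDPs had none there. All 4 arrays of slide 1 lay between -7.56 and -7.18 and were not above background, while all 4 arrays of slide 3 and all 4 of slide 4 were above background. Rag2, by a probe printed on 10 spots (chr2:101472445-101472504, mm9, plus strand), lay between -7.54 and -7.16 on slide 1 and between -4.88 and -4.23 on slide 4. Its spots on single arrays had an SD of 0.03 to 0.69, against an SD of 1.19 over the 16 array means.

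Both Rag genes were above background on 6 arrays, Rag1 alone on 3, Rag2 alone on 0 and neither on 7. By cell type, Rag1 was above background on 6 of 8 CDP arrays and 3 of 8 MDP arrays. The between-slide share of the variance was 86.3% for Rag1 and 79.9% for Rag2. In tumor-bearing mice Rag1 was higher in CDPs than in MDPs by 1.81 (SE 0.87, adjusted p = 0.189 by limma, exact permutation p = 0.0571), but the 2 slides that carried both groups gave 0.22 and 0.01, and the slide block gave 0.21. Rag2 was above background in 0 of 4 MDP samples and 2 of 4 CDP samples from tumor-bearing mice, with means of -6.69 ± 0.89 and -5.29 ± 0.82 (SD, n = 4 each, adjusted p = 0.222 by limma). Since the MDP mean is a background level, neither this difference nor the tumor change of Rag2 in MDPs (adjusted p = 0.651 by limma) is given as a size.

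Without tumor, Rag1 was higher in CDPs by 0.94 (SE 0.87, adjusted p = 0.776 by limma), and the within-slide differences were -0.22 on slide 1, where no array was above background, and 2.18, 0.79 and 1.03 on slides 2, 3 and 4. With slide as a block the same difference of 0.94 had an SE of 0.32 and an adjusted p of 0.072 by limma. The tumor changes of Rag1 turned sign with the slide block, from 0.46 to -0.34 in CDPs and from -0.40 to 0.40 in MDPs. That of Rag2 in CDPs was -0.02, and -0.70 with the block. None passed the test. The dimmer Rag1 probe was above background only on MDP sample 4 without tumor, at -4.50, and MDP sample 3 with tumor, at -3.69, and the dimmer Rag2 probe on none.

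**Figure D3:**
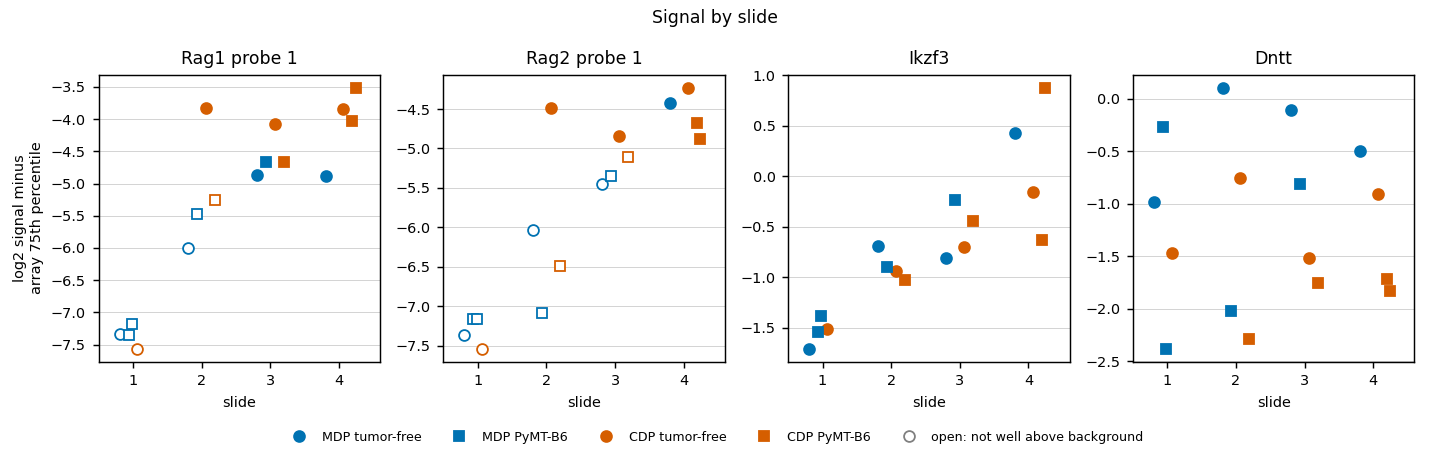
Signal of Rag1 probe 1, Rag2 probe 1, Ikzf3 and Dntt, as log2 intensity minus the array's 75th percentile (y axes differ in range), by slide (x axis), with blue for MDPs, orange for CDPs, circles for tumor-free and squares for tumor-bearing mice, and open symbols where the probe was not well above background. The arrays of slide 1 were lowest for Rag1, Rag2 and Ikzf3, whereas Dntt had no such order and its MDP circles lay above the CDP circles on every slide.

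Pax5, the B-lineage commitment factor, was read by 2 probes that did not move alike. Both are shown so that the stretches read by each can be told apart.
Pax5 probe 1: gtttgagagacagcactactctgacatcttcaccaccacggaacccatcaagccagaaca
Pax5 probe 2: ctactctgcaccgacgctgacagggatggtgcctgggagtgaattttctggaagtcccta
Both read the same transcript on the array design, from bases 751 and 1009. Probe 1 lies at chr4:44658421-44658480 (mm9, minus strand), and the files give no genome position for probe 2. Probe 1 was between -1.98 and -0.97 on all 16 arrays. Its tumor change was -0.02 in CDPs (95% interval -0.61 to 0.57) and -0.18 in MDPs (-0.77 to 0.40), and CDPs differed from MDPs by 0.11 without tumor and 0.27 with tumor. Of the variance of probe 1, 88.0% lay between slides, with slides 1 and 2 at -1.98 to -1.53 and slides 3 and 4 at -1.28 to -0.97.

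Pax5 probe 2 had signals of -3.72, -3.31, -3.59 and -3.94 in MDPs without tumor and of -5.26, -3.85, -6.43 and -3.11 in MDPs with tumor. The 2 lowest of these were the MDP samples from tumor-bearing mice on slide 1, and they were not above background. CDPs had -2.93, -2.80, -2.92 and -3.59 without tumor and -3.69, -3.07, -3.97 and -2.97 with tumor. The tumor change in MDPs was -1.02 (SE 0.54, adjusted p = 0.519 by limma), with -2.53, -0.13 and 0.83 within slides 1, 2 and 3. CDPs from tumor-bearing mice were 1.24 above their MDPs (SE 0.54, adjusted p = 0.160 by limma), but the slides with both groups gave -0.12 and 0.14. This difference was called in a single alternative, without MDP sample 5 from tumor-bearing mice, where it was 1.76 (adjusted p = 0.0316 by limma).

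The surrogate light chain genes did not pass the test in any comparison. Vpreb1 (chr16:16868559-16868618, mm9, minus strand) was between -3.47 and -0.58 on the 16 arrays. Group means were -1.70 ± 0.45 in MDPs and -2.29 ± 0.79 in CDPs without tumor, and -1.79 ± 0.85 in MDPs and -2.58 ± 0.35 in CDPs with tumor (SD, n = 4 each). CDPs were lower than MDPs by -0.60 without tumor and -0.79 with tumor (SE 0.44, adjusted p = 0.623 and 0.225 by limma). Within slides the difference was 0.24, -0.12, -0.91 and -1.60 on slides 1 to 4 without tumor, and -0.80 and -0.96 on slides 2 and 3 with tumor. The tumor changes were -0.29 in CDPs and -0.10 in MDPs.

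Igll1 was read by 1 probe at chr16:16861104-16861163 (mm9, minus strand).
Igll1 probe: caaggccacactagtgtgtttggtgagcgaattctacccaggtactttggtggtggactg
It varied widely among samples of a group, with -3.18, -3.44, -4.38 and -3.44 in MDPs without tumor and -4.21, -2.97, -5.10 and -2.10 in MDPs with tumor. CDPs had -4.45, -4.18, -3.12 and -4.65 without tumor and -2.42, -5.24, -4.32 and -2.86 with tumor. Both the highest and the lowest sample were from tumor-bearing mice. The tumor change was 0.39 in CDPs (95% interval -1.06 to 1.84) and 0.02 in MDPs (-1.43 to 1.47), and the within-slide values lay on both sides of 0, from -1.21 to 1.60 in CDPs and from -1.22 to 1.35 in MDPs. Vpreb1 and Igll1, although neighbors, were not ordered alike: MDP sample 2 with tumor was highest for Vpreb1 at -0.58 and had -4.21 for Igll1.

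Ikzf3 (chr11:98326176-98326235, mm9, minus strand) lay between -1.71 and 0.88. Its tumor change was 0.52 in CDPs (SE 0.48, adjusted p = 0.738 by limma) and -0.32 in MDPs (SE 0.48, adjusted p = 0.774 by limma). With slide as a block these were 0.08 and 0.12. Slide 1 held its 4 arrays between -1.71 and -1.38, below every array of the other slides, and 78.2% of its variance lay between slides. Samples with tumor overlapped those without in both cell types.

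Il7r and Ebf1 were near background on almost all arrays. Il7r (chr15:9435976-9436035, mm9, minus strand) stood out on CDP sample 5 without tumor, at -2.74, and on CDP sample 3 with tumor, at -4.39, while the other 14 arrays were not above background and lay between -7.45 and -5.66. Ebf1 (chr11:44818438-44818497, mm9, plus strand) was above background on MDP sample 2 without tumor, at -3.95, and the other 15 arrays lay between -7.51 and -5.16. On CDP sample 5, where Il7r was at its highest, Rag1 was at -7.56 and not above background, whereas CDP sample 3 with tumor had the highest signals of Rag1, at -3.51, and Ikzf3, at 0.88. MDP sample 2, the array with Ebf1, had the highest Dntt signal, at 0.11. Neither gene passed the filter for the fit across all probes, and no difference between groups is given for them.

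Patterns like those of the members were sought among 12671 other genes above background on all 16 arrays, by Pearson correlation over the 16 arrays, with 0.9 as the minimum. For Ikzf3 the nearest were Gm3734 (0.981), Zfp28 (0.973) and Dcp1b (0.971), and for Pax5 probe 1 they were Abcc6 (0.965), Vwa3b (0.951) and Gm10354 (0.944). Between 80.8% and 94.3% of the variance of these 6 genes lay between slides, and the 16 points share 4 slides. No gene reached 0.9 with Dntt or Vpreb1, for which the nearest were Parp6 (0.850) and Nudt7 (0.813).

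The partners of these genes were described from lists, each gene by its brightest tested probe. Of 19 tested early lymphoid transcription factors, 4 were called lower with tumor in CDPs and 0 higher, with a median change of -0.57. All 16275 genes tested had 1.99% called and a median of 0.07 in the same comparison. Erg, an ETS factor of stem and progenitor cells, fell from -1.34, -2.23, -2.56 and -0.65 to -7.18, -4.29, -6.12 and -3.75 (log2 change -3.64, SE 0.63, adjusted p = 0.0114 by limma). Only 2 of these 4 tumor-bearing samples were above background, -4.29 and -3.75, so the size of the Erg change rests partly on background levels. Bach2, a repressor of myeloid genes in lymphoid progenitors, fell from -0.62, -0.47, -0.26 and 0.49 to -3.03, -3.92, -2.79 and -1.93 (log2 change -2.70, SE 0.47, adjusted p = 0.0116 by limma). The groups did not overlap for either gene, as for 11.1% of all tested probes in this comparison. Satb1, a chromatin organizer of lymphoid progenitors, fell by 1.27 on the log2 scale and Bcl11a, a factor of lymphoid and pDC development, fell by 0.85. The CDP groups overlapped for Satb1, whose highest sample with tumor was at 0.23 and lowest without tumor at 0.16. For Bcl11a they did not overlap. Kit fell in the same samples by 1.34 on the log2 scale, and its part in these changes was not tested. Leaving out single arrays gave 2 to 5 called genes, Bach2 and Erg among them each time, with 2 left without MDP sample 2 or 5 or CDP sample 2, 3 or 5 from tumor-free mice, or CDP sample 3 or 4 from tumor-bearing mice, while the fit on CDPs alone gave 0. Without the 4 arrays of slide 1, Bach2 alone was called. With slide as a block 5 factors were called lower: Bach2, Bcl11a, Erg, Satb1 and Sox4.

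In MDPs 0 of these 19 factors were called, with a median change of -0.17 against -0.09 for all genes, of which 0.086% were called. Mean signals in MDPs without and with tumor were -1.51 and -2.93 for Bach2 and 0.66 and 0.24 for Satb1. They were -0.04 and -0.25 for Erg and 0.59 and 0.63 for Bcl11a. CDPs against MDPs had 4 factors higher and 1 lower without tumor, and 2 higher and 4 lower with tumor, where 7.02% and 8.20% of all genes were called. Irf4, an interferon regulatory factor of lymphoid and dendritic cells, was above background on 4 of 4 CDP arrays in both states, but on 2 of 4 MDP arrays without and 0 of 4 with tumor. It was called higher in CDPs in both states, and with tumor it was at least 4.19-fold higher (adjusted p = 6.17e-05 by limma), the MDP samples being set to the lowest signal above background on their array. Id2, an inhibitor of E proteins, was above background on 4 of 4 CDP arrays in both states, on 0 of 4 MDP arrays without and 1 of 4 with tumor. It was likewise called higher in CDPs in both states, and without tumor it was at least 5.33-fold higher (adjusted p = 0.00695 by limma). Myb, a factor of hematopoietic progenitors, was lower in CDPs in both states, by -0.92 and -1.30.

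Of the 10 IL-7 receptor partners, all tested, 1 rose and 1 fell with tumor in CDPs. Jak3, the kinase on the common gamma chain, rose by 0.86 (SE 0.17, adjusted p = 0.0238 by limma), and Bcl2, the survival factor induced through the receptor, fell by 1.0 on the log2 scale (SE 0.18, adjusted p = 0.0138 by limma). Of 15 lymphoid-primed surface and signaling genes 1 was called with tumor in CDPs: Cd27, a TNF-receptor family member of lymphoid-primed progenitors, fell by 1.66 on the log2 scale (SE 0.25, adjusted p = 0.00513 by limma). None of the 12 V(D)J recombination partners, 16 pre-B receptor and B cell genes or 6 Ikaros, EBF and PAX paralogs was called in CDPs, with medians of 0.08, 0.10 and -0.07. None of these 5 lists had a called gene in MDPs, where the medians were 0.02 for the IL-7 receptor partners, -0.46 for the lymphoid-primed genes, 0.01 for the V(D)J partners, -0.59 for the pre-B receptor and B cell genes and -0.08 for the paralogs.

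**Figure D4:**
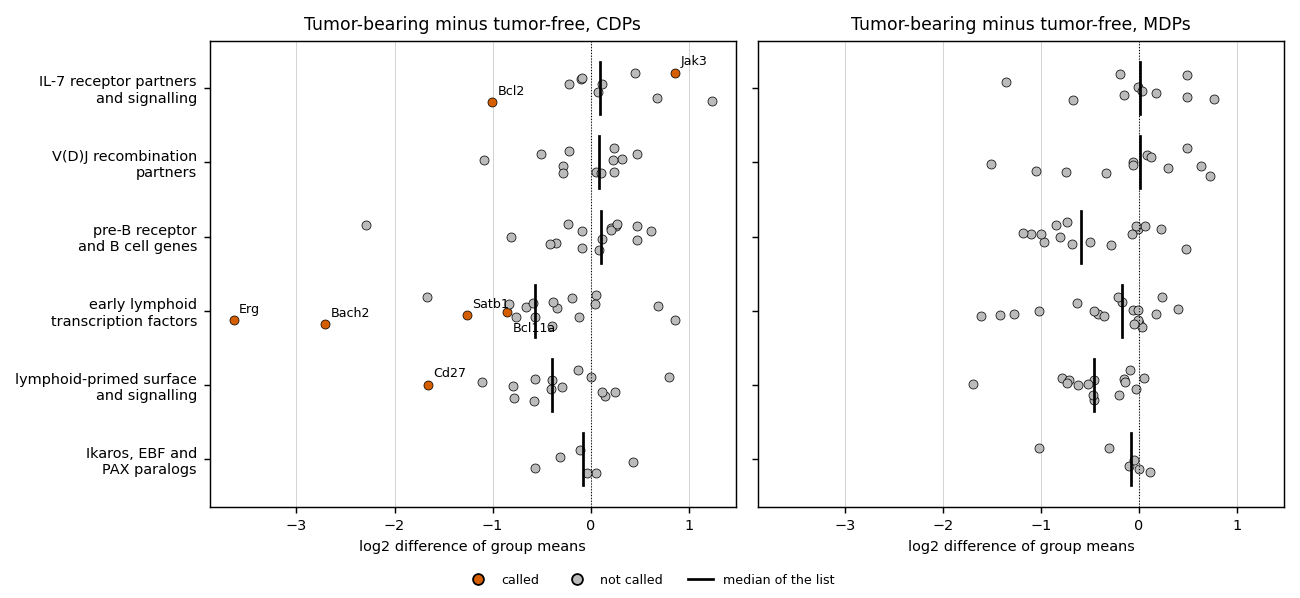
Log2 difference of group means, tumor-bearing minus tumor-free (x axis), for each tested gene of 6 lists (y axis; points are spread within a list only to separate them), in CDPs on the left and MDPs on the right, with called genes in orange and named, and a bar at the median of each list. The 7 called genes were all in CDPs, 6 of them lower and Jak3 higher.

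Markers of other cell types were read beside the members. Among the 10 mature B and plasma cell markers on the array, Ms4a1, a surface protein of mature B cells, was above background on 0 arrays, while 6 of the 10 were above background on all 16. Their summed level, in multiples of the 75th percentile, was 20.9 to 42.3 in MDPs and 22.5 to 37.2 in CDPs without tumor, and 19.7 to 35.6 in MDPs and 27.2 to 50.2 in CDPs with tumor. By slide it was 19.7 to 22.5, 26.6 to 29.1, 27.9 to 36.2 and 35.4 to 50.2 on slides 1 to 4. The summed level of 15 T and NK cell markers likewise rose with the slide, with 0.743 to 1.45, 1.99 to 2.44, 2.66 to 3.37 and 4.17 to 4.78. The part of the slide or of other cells in the Rag1, Rag2, Pax5 and Ikzf3 values was not tested. Of 11 pDC markers 3 were called lower with tumor in CDPs. In CDPs against MDPs 4 were called higher without tumor and 1 with tumor, where 7.02% and 8.20% of all genes were called. Of 12 neutrophil markers 3 were called higher with tumor in CDPs and 1 in MDPs. With tumor 1.99% of all genes were called in CDPs and 0.086% in MDPs. Of the T and NK cell markers 1 was called lower with tumor in CDPs. For the 7 mature B and plasma cell, 11 monocyte and macrophage, 8 erythroid and 5 mammary tumor markers tested, 0 were called with tumor in either cell type.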

How the data were processed

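Each array came with a scanner file from Agilent Feature Extraction, version 11.5.1.1. The processed signal that the authors deposited in it is a spot intensity after subtraction of background and spatial detrending, unscaled across arrays, beside flags of 0 or 1. The deposited value table is in log2 units and holds 26793 probes, 11 of the 12 member probes among them. Since the choice of its probes is not stated, it served as an alternative. The submitters' processing notes name limma. Probe positions are those of the files (mm9).

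Controls and spots marked as outliers (182 to 289 per array) were dropped. Signals were put on a log2 scale, each array was centered on its 75th percentile, spots of a probe were averaged, and group means of all 16 arrays were fitted with limma 3.58.1 (R 4.3.3, with data.table version 1.17.8) with Benjamini-Hochberg adjustment over 27431 probes. 0 spots were saturated. Single probes also had an exact two-sided permutation test. The number of arrays limits the precision, and p-values measure the spread between samples of 2 mice. The fit was tested on simulated data. Members and lists were chosen with earlier results of these data known. All members and probes are named, list genes only if called (at most 5 per list and comparison) or as defining markers. Alternatives were normexp (offset 50), quantile and median scaling, other filters, the value table, slide and replicate blocks, only the groups compared, the methods' t-test, other thresholds, other probes of a gene, leaving out single arrays and, chosen after seeing the data, leaving out slide 1.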

Additional observations from a re-analysis of the deposited data

Results flagged for a closer look

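Of 48 sets of 4 samples (12 probes in 4 groups), 8 had a sample far from the other 3, by its gap to the nearest sample as a share of the range. Chance gives about 1 in 20 such sets. Il7r was far above the rest in CDP sample 5 without tumor (-2.74, next -7.07) and in CDP sample 3 with tumor (-4.39, next -6.96). Rag1 probe 1 was far below in CDP sample 5 without tumor (-7.56, next -4.07), an array of slide 1. Rag1 probe 2 was far above in MDP sample 4 without tumor (-4.50, next -7.30), in MDP sample 3 with tumor (-3.69, next -7.22) and in CDP sample 2 without tumor (-5.33, next -7.25), the last not above background. Rag2 probe 1 was far above in MDP sample 5 with tumor (-5.35, next -7.08), also not above background. Pax5 probe 2 was far below in CDP sample 5 without tumor (-3.59, next -2.93). In 6 of the 8 sets at least 3 samples were near background, and CDP sample 5 without tumor accounted for 3 of the 8.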

How the results depend on the processing

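No member probe was called in any of the 5 comparisons under the alternatives, apart from the methods' t-test at unadjusted p, which called 1 (Dntt) for the tumor change in CDPs and 1 (Dntt) for CDPs against MDPs without tumor, and 1 array left out. Over all tested probes that t-test called 2072 and 2995 in these comparisons. The t-test was not run for the difference of the tumor changes, and the filter on all 16 arrays gave no value for Rag1, Rag2 or Igll1. Leaving out single arrays gave 0 to 1 called probes for CDPs against MDPs with tumor, the 1 being Pax5 probe 2 without MDP sample 5 from tumor-bearing mice. The Dntt differences in the 4 comparisons of 2 groups stayed below 0 under every alternative run, from -0.85 to -0.60 (CDPs) and from -1.36 to -0.66 (MDPs) with single arrays left out. With the replicate number as a block 0 member probes were called, and the calls over all probes were 371 for CDPs and 10 for MDPs. Same-numbered samples of other groups had a median correlation of -0.01, and 8 of 24 were over 0.1. For samples of other groups on the same slide the median was 0.26, and 19 of 22 were over 0.1. Most same-numbered samples lay on different slides, so these values cannot decide whether a number pairs samples. The labels do not say.

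The other genes changed sign under some settings, by their brighter probe, and the cause was not tested. Normexp gave a tumor change in CDPs of 0.0452 for Rag2 and 0.041 for Pax5, in MDPs -0.13 for Igll1, and CDPs against MDPs without tumor at -0.0685 for Rag1 and -0.30 for Rag2. Quantile normalization gave 0.0673 for Rag2 and 0.0104 for Pax5 in CDPs and 0.088 for Vpreb1 in MDPs, and the value table gave 0.0495, 0.01 and 0.0863. With slide as a block the tumor change was -0.34 for Rag1 in CDPs, and in MDPs 0.40 for Rag1, 0.0126 for Pax5 and 0.12 for Ikzf3, while CDPs against MDPs with tumor gave -0.13 for Pax5 and -0.17 for Ikzf3. Without slide 1, chosen after seeing the data, Rag1 changed by -0.45 in CDPs and 0.17 in MDPs. The dimmer Rag1 probe gave -0.53 in CDPs, 0.21 in MDPs, and -0.30 without and -1.04 with tumor for CDPs against MDPs, and the dimmer Rag2 probe, above background on 0 arrays, gave -0.45 and -0.076. Leaving out single arrays moved the tumor change in CDPs from -0.45 to 0.80 for Rag1, -0.77 to 0.38 for Rag2, -0.19 to 0.13 for Pax5 and -0.0414 to 0.90 for Igll1. In MDPs it moved from -0.48 to 0.52 for Igll1, -0.50 to 0.17 for Vpreb1 and -0.66 to 0.0566 for Ikzf3. CDPs against MDPs ranged from -0.0399 to 0.27 for Pax5 and -0.47 to 0.24 for Ikzf3 without tumor, and from -0.62 to 0.39 for Igll1 with tumor. Of the values recomputed for the results of each gene's brighter probe, 737 kept their direction and call or moved by less than the spread. A further 50 were counted as turned in sign and 25 as moved further. The 50 are not all sign turns, since a value within a slide was counted only by how far it moved. Rag1 in MDPs, lower with tumor by its group means, was higher on every slide that held both groups, by 0.07, 0.53 and 0.19 on slides 1, 2 and 3. On slides 1 and 2, however, no MDP array was above background for Rag1, so those differences lie between background levels. The dimmer Pax5 probe with single arrays left out is not among these counts. Tumor calls over all probes in CDPs were 491, against 1251 with the slide block, 55 with only the groups compared, 153 to 578 with single arrays left out, 861 at an FDR of 0.1, and 2072 and 3 by the t-test before and after adjustment. In MDPs they were 17, against 45, 5, 38, 1016 and 1, and 1 to 43 with single arrays left out. For CDPs against MDPs they were 1665 without tumor, against 2923 with the slide block, and 1986 with tumor, against 793 with only the groups compared, 1139 without slide 1 and 1126 to 3276 with single arrays left out. Signal near background limited Il7r, Ebf1, Rag1 and Rag2.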
